A study of Mus musculus with 8 samples.

Results

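Genes of the phosphorylated bone matrix were followed in mineralizing MC3T3 cells, with and without medium from lung carcinoma cells. They are Spp1, Ibsp, Dmp1 and Mepe, which belong to the SIBLING family of matrix phosphoproteins, with Phex, an endopeptidase, and Fam20c, their kinase. The 6 genes were chosen by symbol from the 43346 genes of the count table, with earlier results of these data known. Each was found as a single row, and all 6 were among the 14991 genes with enough reads to be tested. In 4 LLC_CM libraries every one differed from 4 NCM libraries: Spp1 was higher and the other 5 were lower. Changes were common, with 36.9% of all genes tested differing at the same threshold.

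MC3T3 is a mouse pre-osteoblast line, and the labels name no other cell in the cultures. All cultures were kept for 7 days with 10 mM beta-glycerophosphate, a phosphate source, and 100 micrograms per mL of ascorbic acid, which collagen synthesis needs. LLC_CM cultures had 25% of their medium from LLC1, a mouse Lewis lung carcinoma line that had conditioned serum-free medium for 48 hours. NCM is taken as the vehicle group by elimination, since its abbreviation is not explained in the labels, and the makeup of the vehicle is not given in the sources used here. Nothing in the labels ties replicates to separate cultures, so the spread that p-values rest on may be technical. In bulk RNA fewer expressing cells and less RNA per cell cannot be told apart.

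SIBLING proteins are small, acidic, secreted proteins that carry integrin-binding sequences and many phosphorylated serines, and they bind mineral and control its growth in bone and dentin. Fam20c is the Golgi kinase that adds most of those phosphates, and Phex sits on the osteoblast and osteocyte surface, where it destroys mineralization-blocking peptides released from SIBLING proteins. Loss of PHEX, DMP1 or FAM20C function in people raises the hormone FGF23 and causes phosphate wasting. Spp1 and Ibsp are made by osteoblasts, while Dmp1, Mepe and Phex mark the step from osteoblast to osteocyte.

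Library totals ran from 27264212 to 35573953 counts, and the first principal component, with 76.4% of the variance, separated the groups. All 7 osteoblast markers examined were expressed and all 7 were lower in LLC_CM, with a summed level of 35197 to 44819 CPM (counts per 1000000 counts) against 52806 to 72537 CPM in NCM. Most of this sum was Col1a1 and Col1a2, which were 1.41-fold and 1.52-fold lower. Bglap and Bglap2, a small part of it, were 81.8-fold and 77.8-fold lower. Runx2, Sp7 and Alpl of that list return below, and the list's part in the results was not tested. The 5 osteocyte markers summed to 90.7 to 111.4 CPM in LLC_CM and 64.8 to 74.2 CPM in NCM, with 2 higher and 1 lower. Most of that sum was Pdpn alone, at 60.1 to 80.4 CPM in LLC_CM and 34.9 to 46.8 CPM in NCM. Of the defining ones, Fgf23 had 0 counts in every library and Sost, which encodes sclerostin, had 1 count over all 8. The 4 chondrocyte markers summed to 35.3 to 37.4 CPM in LLC_CM and 66.5 to 92.5 CPM in NCM. Col2a1, the cartilage collagen, was 28.3-fold lower (log2 -4.82 ± 0.24, SE; adjusted p = 3.2e-08), Sox9, its transcription factor, was 1.70-fold higher (adjusted p = 7.2e-07), Acan had 2 counts in all and Col10a1 had 0. The part of these in the members' changes was not tested. The epithelial markers Epcam, Krt8 and Krt18 had 0 counts in every library, and the 5 epithelial markers together reached at most 0.177 CPM.

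The SIBLING genes lie together on mouse chromosome 5. With Dspp, the fifth member, they span 270.3 kb from 104170712 to 104441050 in mm10, in the order Dspp, Dmp1, Ibsp, Mepe and Spp1. Fam20c is far away on the same chromosome (138754514 to 138810077) and Phex is on the X chromosome (157162075 to 157415312). All 6 members matched the RefSeq promoter table (GRCm38.p6, the same assembly as mm10), which gives windows of 250 bases before to 50 after each annotated start. The 4 SIBLING promoters are shown because they share an arrangement: ATTGG, the reverse complement of a CCAAT box, followed after exactly 21 bases by TTTANA, where N is any base. Each stretch holds 152 bases of the plus strand, ending at TTTANA, with the ATTGG, the TTTANA and every TGTGGT or its reverse ACCACA, the core bound by Runx factors, in capitals. They are chr5:104434945-104435096 for Spp1, chr5:104299113-104299264 for Ibsp, chr5:104202440-104202591 for Dmp1 and chr5:104325188-104325339 for Mepe.
Spp1: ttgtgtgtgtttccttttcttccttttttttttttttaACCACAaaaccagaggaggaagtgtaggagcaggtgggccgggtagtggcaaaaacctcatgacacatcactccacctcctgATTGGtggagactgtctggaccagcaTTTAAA
Ibsp: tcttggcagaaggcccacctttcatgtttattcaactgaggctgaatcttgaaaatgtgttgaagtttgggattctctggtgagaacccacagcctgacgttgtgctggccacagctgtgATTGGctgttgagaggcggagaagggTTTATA
Dmp1: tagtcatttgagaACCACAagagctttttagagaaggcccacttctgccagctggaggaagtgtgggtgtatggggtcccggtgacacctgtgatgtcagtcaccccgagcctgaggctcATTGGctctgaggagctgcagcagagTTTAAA
Mepe: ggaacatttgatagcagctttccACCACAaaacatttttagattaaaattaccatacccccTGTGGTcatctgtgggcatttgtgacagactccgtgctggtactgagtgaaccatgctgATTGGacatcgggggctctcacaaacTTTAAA

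TTTANA began 20 bases before the RefSeq start in Spp1, 28 in Ibsp and 31 in Dmp1, and 5 bases after it in Mepe. Of 32851 promoter windows, 22 windows of 18 genes (0.0670%) held this pair at this spacing on the sense strand, and 4 of the 18 genes were these SIBLING genes. Sost was another of the 18. ATTGG on the sense strand alone was in 22.1% of windows and TTTANA alone in 27.2%. The pair, its spacing and the window were chosen after the sequences were read, and in shorter windows with a looser spacing Mepe had no match, so the count has no test. Of these 4 SIBLING genes Spp1 rose and the other 3 fell, and a link between the pair and the changes was not tested.

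TGTGGT or ACCACA was in 1 place in Spp1 and Dmp1, in 2 in Mepe and in none in Ibsp, Phex or Fam20c, against 16.8% of all windows with a match on either strand. A match is not a binding site, and a missing one speaks only of these windows. Dmp1 and Spp1 each have another annotated start whose window lacks both the pair and TGTGGT, and the Dmp1 start shown is the one at which the count table begins the gene. In Ibsp the table begins the gene 116 bases before the RefSeq start. The Phex and Mepe windows were each 38.7% GC, while the Fam20c window was 80.7% GC with 47 CG pairs, against a median of 52.7% GC over all windows.

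Spp1 encodes osteopontin, a mineral-binding cytokine-like protein, and it was the member that rose. Its level was 4729.6, 5658, 3931 and 4184 CPM in LLC_CM replicates 1 to 4 and 3031, 2614, 2811 and 2325 CPM in NCM replicates 1 to 4. The lowest LLC_CM library was above the highest NCM library, and LLC_CM replicate 2 was the highest of all. The gain was 0.78 ± 0.12 on the log2 scale (SE; adjusted p = 7.8e-05 by edgeR's quasi-likelihood test), or 1.72-fold. Macrophages also make osteopontin, and their part in the Spp1 change was not tested. The 6 macrophage markers matched summed to 23.0 to 36.5 CPM in LLC_CM and 15.1 to 20.2 CPM in NCM. Most of that was Lyz2, at 15.1 to 28.7 and 8.3 to 14.5 CPM. Of 5 tested 3 rose, where 18.8% of all genes tested were higher, and Cd68 and Csf1r did not pass the threshold. The defining leukocyte marker Ptprc had 0 counts in LLC_CM and 4 in NCM. In GENCODE M21 a gene model on the same strand, Gm42793, shares 18.8% of the exonic length of Spp1 and was not analysed here.

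Ibsp encodes bone sialoprotein, which starts mineral crystal growth. Its level was 9039.7, 10131, 11606 and 9956 CPM in LLC_CM and 13849.5, 12685, 14712 and 14348 CPM in NCM, in replicate order. The groups did not overlap, and LLC_CM replicate 3 came nearest to NCM. The log2 fold change was -0.45 ± 0.10 (SE; adjusted p = 0.0020), a fall of 1.36-fold.

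Dmp1 encodes dentin matrix protein 1, which nucleates mineral and holds down Fgf23 in bone. Its counts were 5, 24, 13 and 21 in LLC_CM and 119, 138, 188 and 118 in NCM, which is 0.161, 0.888, 0.364 and 0.628 CPM against 4.06, 4.89, 6.64 and 3.72 CPM. Every LLC_CM library was below every NCM library, and LLC_CM replicate 1 was the lowest by far. Dmp1 fell by 3.26 ± 0.34 (log2, SE, adjusted p = 2.7e-06), or 9.58-fold. The spread within LLC_CM, a coefficient of variation (CV) of 62.0%, exceeded the 25.2% that counting alone gives at these depths. The SE of Dmp1 was the largest of the 6. The CV in LLC_CM also exceeded counting for Phex (25.8% against 8.73%), Spp1 (16.5% against 0.263%), Ibsp (10.4% against 0.175%) and Fam20c (6.03% against 5.44%). Dmp1 reached the count filter in 3 of 4 LLC_CM libraries and in all 4 NCM libraries, and the other 5 genes reached it in all 8.

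Mepe encodes matrix extracellular phosphoglycoprotein, the source of a mineralization-blocking peptide. It had 19, 14, 26 and 15 counts in LLC_CM and 121, 145, 136 and 117 in NCM, or 0.612, 0.518, 0.728 and 0.448 CPM against 4.13, 5.14, 4.803 and 3.69 CPM. The LLC_CM libraries were close to each other, with a CV of 21.02% where counting alone gives 23.2%. Mepe fell by 2.93 ± 0.21 (log2, SE, adjusted p = 3.3e-08), or 7.60-fold.

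Phex had 4.73, 3.03, 5.18 and 3.32 CPM in LLC_CM and 29.9, 28.3, 37.0 and 38.3 CPM in NCM. Every LLC_CM library was far below every NCM library. Phex fell by 3.03 ± 0.16 (log2, SE, adjusted p = 3.0e-09), or 8.15-fold. Fam20c had 10.5, 10.03, 11.5 and 10.3 CPM in LLC_CM and 17.8, 19.2, 21.01 and 19.7 CPM in NCM. The groups did not overlap, and its CV in LLC_CM, 6.03%, was the lowest of the 6. It fell by 0.88 ± 0.09 (log2, SE, adjusted p = 1.4e-06), or 1.84-fold.

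**Figure D1:**
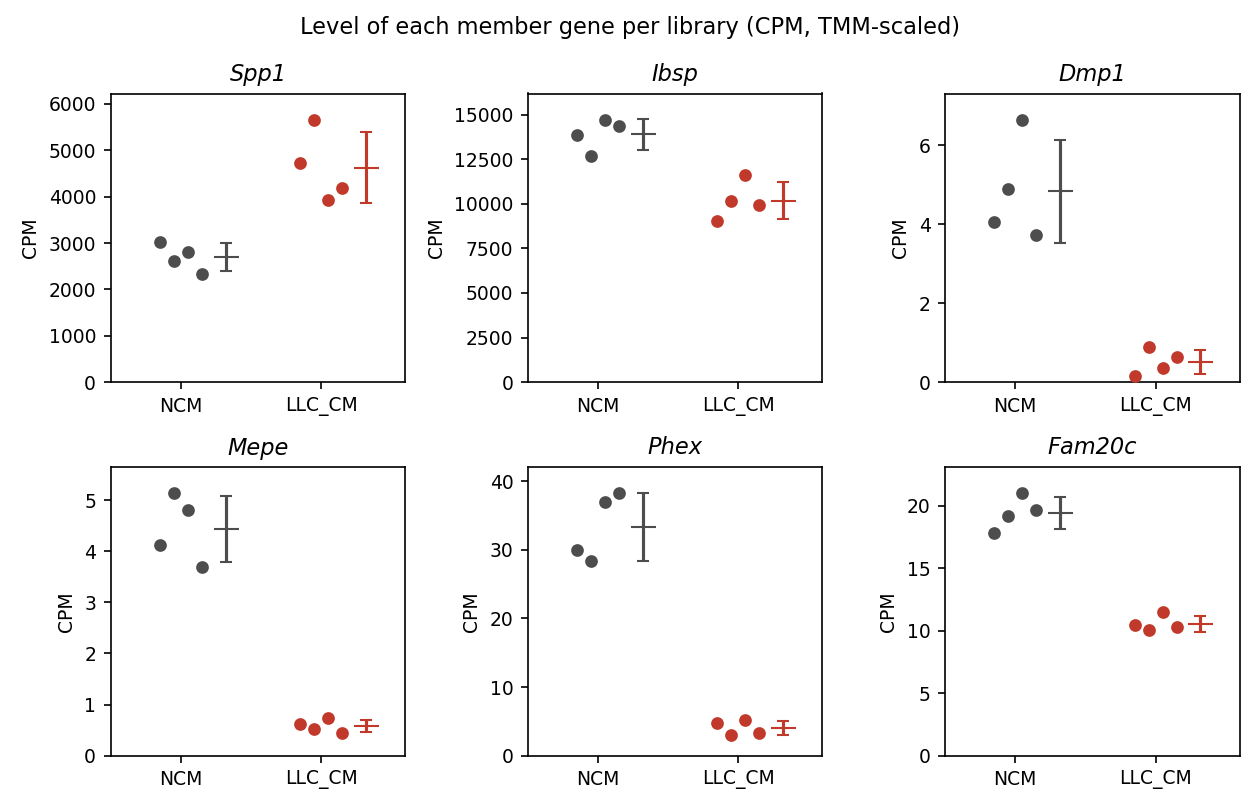
Level of each gene in every library, in CPM on axes that start at 0, for NCM (grey) and LLC_CM (red), with mean and SD (n = 4) beside the points. In all 6 panels the groups are apart, with LLC_CM above NCM only for Spp1.

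Called changes were common in this comparison. Of all genes tested 36.9% passed an adjusted p of 0.05, 18.8% higher and 18.1% lower. Another measure, groups that did not overlap, held for 36.3%, so 6 of 6 on both measures reads against those shares. The 6 genes were chosen with earlier results of these data known, so the counts of members in this paragraph are a description. A fall of at least 4-fold that passed the threshold was less common, at 1.68% of genes tested, and Dmp1, Mepe and Phex were 3 of those 252 genes. Ordered from the lowest log2 fold change, Dmp1 was number 116, Phex 128 and Mepe 136 of 14991.

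**Figure D2:**
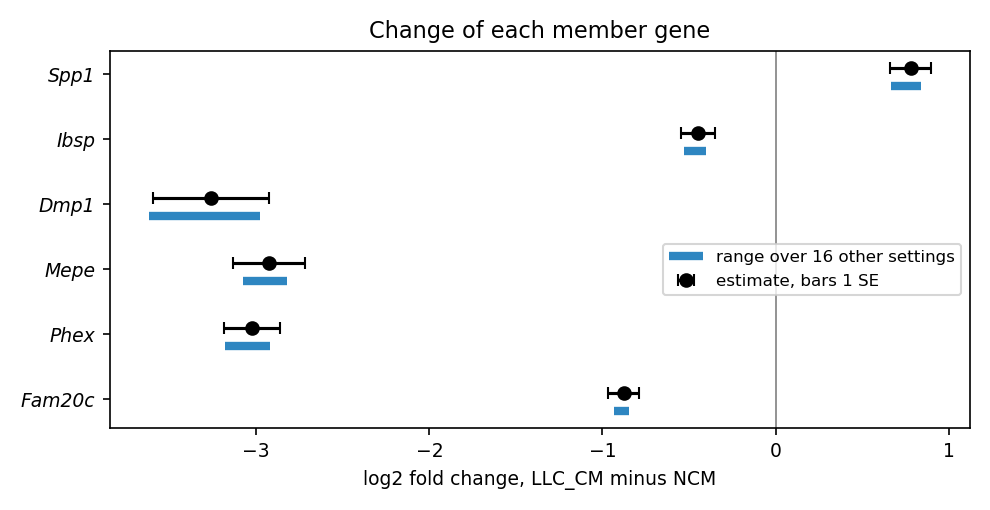
Log2 fold change of each gene, LLC_CM minus NCM, as estimate with SE (black) and as the range over 16 other settings (blue). Dmp1, Mepe and Phex lie between -3.62 and -2.82 in all settings, Ibsp and Fam20c above -1 and Spp1 above 0.

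Levels of different genes were compared per length, as CPM divided by gene length in kb. In NCM the order was Ibsp (6721 ± 427 CPM per kb), Spp1 (1635 ± 182), Phex (5.31 ± 0.79), Fam20c (4.60 ± 0.31), Mepe (2.64 ± 0.39) and Dmp1 (1.75 ± 0.47; all SD, n = 4). Phex and Fam20c overlapped, as did Mepe and Dmp1, and the other neighbours in the order did not. In LLC_CM it was Ibsp (4924 ± 514), Spp1 (2807 ± 464), Fam20c (2.50 ± 0.15), Phex (0.646 ± 0.167), Mepe (0.343 ± 0.072) and Dmp1 (0.185 ± 0.115; all SD, n = 4). Mepe and Dmp1 overlapped there, and Phex fell below Fam20c in every library. With the longer exon union of GENCODE M21 as its length, Fam20c had a mean of 2.95 CPM per kb in NCM and 1.603 in LLC_CM, and the order of the means was the same. Its NCM range was then 2.71 to 3.19, which no longer overlapped Phex and did overlap Mepe, at 2.19 to 3.05.

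Ibsp was the most abundant gene tested per length in LLC_CM and number 2 in NCM, with 1.28% to 1.46% of all counts in NCM and 0.904% to 1.17% in LLC_CM. Spp1 moved from number 18 to number 8. Summed per length, the 4 SIBLING genes reached 8361 ± 466 CPM per kb in NCM and 7732 ± 521 in LLC_CM (SD, n = 4), and the groups overlapped, at 7725 to 8825 and 7242 to 8333. Within that sum Spp1 held 36.3% ± 5.2 in LLC_CM and 19.6% ± 2.0 in NCM, and Ibsp 63.7% ± 5.2 and 80.4% ± 2.0 (SD, n = 4). Dmp1 held at most 0.0273% of it and Mepe at most 0.0395% in any library.

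Ratios of counts within a library do not depend on how libraries are scaled, and 5 were compared. The Ibsp-to-Spp1 ratio was 1.91, 1.79, 2.95 and 2.38 in LLC_CM and 4.57, 4.85, 5.23 and 6.17 in NCM, in replicate order. The groups did not overlap, and the ratio was 2.34-fold lower in LLC_CM (log2 difference -1.22, two-sided exact permutation p = 0.0286, adjusted over the 5 ratios 0.0476). The smallest p that 4 against 4 allows is 0.0286. Relative to Ibsp, Dmp1 was 8.09-fold lower in LLC_CM (log2 difference -3.02, exact permutation p = 0.0286, adjusted 0.0476), again without overlap.

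Changes of Dmp1 could not be told apart from those of Mepe or Phex by ratio. Dmp1 per Mepe was 0.263, 1.71, 0.5 and 1.40 in LLC_CM and 0.983, 0.952, 1.38 and 1.01 in NCM, with a log2 difference of -0.51 ± 0.65 (SE; exact permutation p = 0.457, adjusted 0.571). That difference ran from -0.91 without LLC_CM replicate 2 to -0.01 without LLC_CM replicate 1, and was -0.32 and -0.81 without LLC_CM replicates 3 and 4. Phex per Dmp1 differed by 0.41 ± 0.73 (SE; exact permutation p = 0.629, adjusted 0.629), and without LLC_CM replicate 1, which had 5 counts of Dmp1, by -0.15. SEs of this size do not show that the genes fell equally. Fam20c per Fam20b, a relative that phosphorylates xylose in proteoglycans, was 0.0852 to 0.0976 in LLC_CM and 0.149 to 0.183 in NCM, a log2 difference of -0.84 (exact permutation p = 0.0286, adjusted 0.0476).

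**Figure D3:**
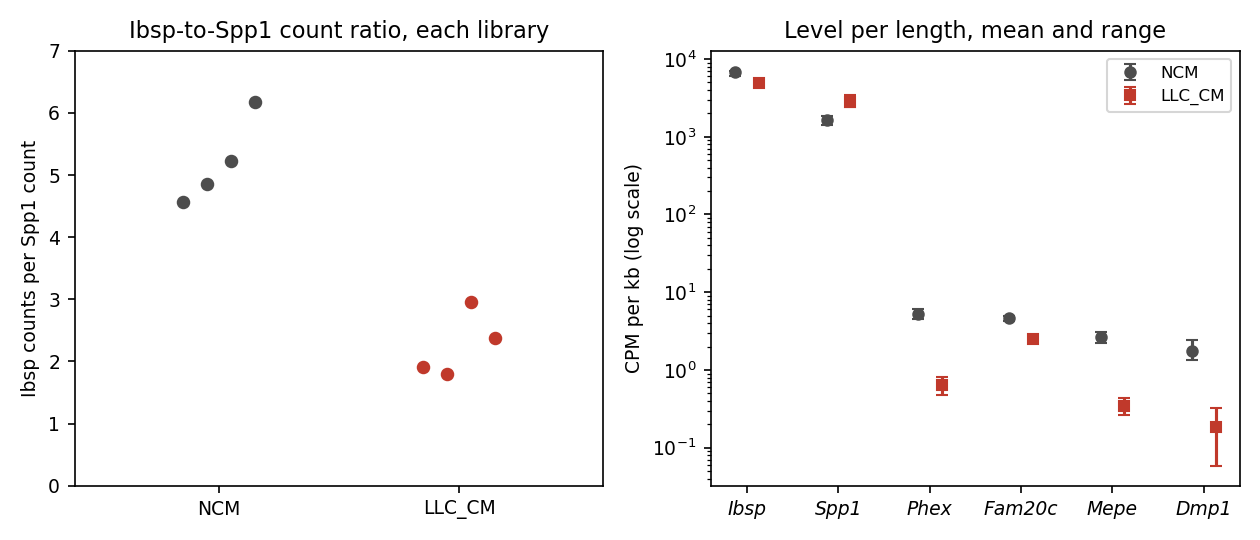
Left, Ibsp counts per Spp1 count in each library, on an axis from 0, where NCM runs from 4.57 to 6.17 and LLC_CM from 1.79 to 2.95. Right, level per length of the 6 genes in CPM per kb on a log scale, as mean and range of 4 libraries in NCM (grey circles) and LLC_CM (red squares), with Ibsp and Spp1 far above the other 4.

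Within 500 kb of the family 24 genes are listed, and 13 were tested, the 4 members and 9 neighbours. Of the neighbours 3 rose and 2 fell, and 4 did not pass the threshold, where 36.9% of all genes tested were called, so nothing particular to the locus is read from these counts. Sparcl1, which encodes a secreted relative of osteonectin and lies on the Dspp side, rose by 2.11 ± 0.18 (log2, SE, edgeR, adjusted p = 5.6e-06), from 27.5 ± 6.2 to 118.5 ± 22.4 CPM (SD, n = 4). Nudt9, an ADP-ribose hydrolase, rose by 0.51 ± 0.07 and Aff1, a transcription elongation factor, by 0.21 ± 0.06. Pkd2, the polycystin gene next to Spp1, fell by 0.17 ± 0.05 (adjusted p = 0.023) and BC005561 fell by 0.32 ± 0.10 (adjusted p = 0.023). Pkd2 lost its call without LLC_CM replicate 4 (0.055) or NCM replicate 1 (0.050), and BC005561 without LLC_CM replicate 1 (0.051), 2 (0.055) or 4 (0.059) or NCM replicate 2 (0.060). Klhl8 (-0.16 ± 0.08), Hsd17b11 (-0.04 ± 0.07), the noncoding D930016D06Rik (-0.16 ± 0.08) and the pseudogene Gm8258 (0.27 ± 0.43) did not pass, although Klhl8 did without LLC_CM replicate 3 (0.044). Dspp, which encodes the main SIBLING protein of dentin, had 0 counts in every library, where 3 counts would be 0.110 CPM in the shallowest.

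**Figure D4:**
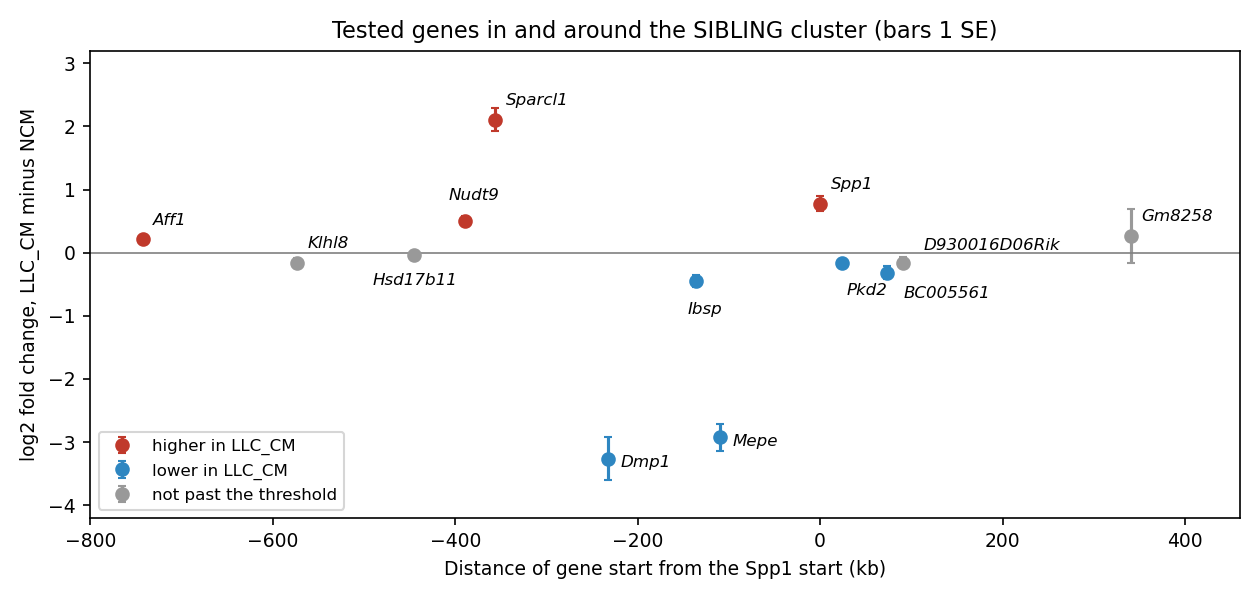
Log2 fold change, LLC_CM minus NCM, with SE, of the 13 tested genes by distance of their start from the Spp1 start in kb, coloured by call. Dmp1 (-3.26), Ibsp (-0.45), Mepe (-2.93) and Spp1 (0.78) are next to each other and differ in change, and of the genes on either side Sparcl1 (2.11) and Nudt9 (0.51) rose most.

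Other genes of the SIBLING pathway were read from 9 lists, written from general knowledge with earlier results of these data known. Of 51 tested genes 20 rose, 21 fell and 10 did not pass the threshold, with a median log2 fold change of -0.04, against 18.8% higher, 18.1% lower and a median of 0.01 over all genes tested. Each list holds few genes, and since they were written with results known, their shares beside these are a description. Sparc, which encodes osteonectin, a relative of the SIBLING proteins, fell by 0.71 ± 0.10 (SE; adjusted p = 5.1e-05), and the enamel relatives Ambn, Enam, Amelx, Amtn and Odam had 0 counts in every library.

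Among secretory pathway kinases 3 of 9 rose and 3 fell (median -0.04). Fam20b, at 116.8 ± 5.0 CPM in LLC_CM and 119.8 ± 3.6 in NCM (SD, n = 4), did not pass (log2 -0.04 ± 0.05, SE, edgeR, adjusted p = 0.64). Fam20a, a pseudokinase that activates Fam20c, fell by 0.33 ± 0.12 (adjusted p = 0.048), with overlapping groups. That call was lost in 11 of 16 other settings, with an adjusted p of 0.0158 to 0.105 over all 16. Among these were the fits without LLC_CM replicate 1 (0.074), 3 (0.0884) or 4 (0.0943) and without NCM replicate 2 (0.0919), 3 (0.101) or 4 (0.105), and the fit with the replicate number as a block (0.066). The Golgi proteins Fam198a and Fam198b moved apart, at 2.60 ± 0.20 and -2.38 ± 0.16. Pkdcc, a secreted tyrosine kinase of bone, fell by 0.80 ± 0.15 and Fam69a rose by 0.74 ± 0.11.

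In the phosphate hormone axis around Phex 2 of 6 tested genes rose and 4 fell (median -0.25). Fgf23 itself was at 0, as were Kl, its co-receptor, and the renal transporters Slc34a1 and Slc34a3. Galnt3, which adds the sugar that protects FGF23 from cleavage, fell by 2.60 ± 0.20 (log2, SE, edgeR, adjusted p = 1.1e-07), from 10.99 ± 1.16 to 1.79 ± 0.65 CPM (SD, n = 4). Fgfr1, the FGF receptor, fell by 0.36 ± 0.07, and the phosphate transporters Slc20a1 and Slc20a2 moved apart, at -0.29 ± 0.07 and 0.56 ± 0.11. Enpp1, which makes the mineralization inhibitor pyrophosphate, had 8 counts over LLC_CM and 7 over NCM and was not tested.

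Among relatives of Phex in the neprilysin family 1 of 4 tested rose, 1 fell and 2 did not pass (median 0.06). Mme, neprilysin itself, rose by 1.76 ± 0.07 (log2, SE, edgeR, adjusted p = 3.8e-11), from 83.1 ± 6.9 to 281.2 ± 12.9 CPM (SD, n = 4). Ece1, the endothelin-converting enzyme, fell by 0.67 ± 0.08 (adjusted p = 7.9e-06).

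Of 8 tested receptors for SIBLING proteins 3 rose, 1 fell and 4 did not pass, with a median of 0.06. Of the integrin chains that bind osteopontin and bone sialoprotein, Itgav (-0.14 ± 0.06), Itgb3 (-0.17 ± 0.10) and Itgb5 (0.23 ± 0.10) did not pass the threshold, nor did the hyaluronan and osteopontin receptor Cd44 (-0.11 ± 0.07). Some of these passed in other fits: Itgav without LLC_CM replicate 1 (0.048) and in DESeq2 (0.042), Itgb5 without LLC_CM replicate 2 (0.0074) or NCM replicate 3 (0.037), and Cd44 without NCM replicate 3 (0.049). Itgb1 fell by 0.56 ± 0.08 and had the highest CPM of the list, 1008 ± 77.6 CPM in LLC_CM (SD, n = 4). Itga5, Itga9 and Itga8 rose by 0.42 ± 0.06, 0.53 ± 0.10 and 0.78 ± 0.25. The Itga8 call (adjusted p = 0.033) was lost without LLC_CM replicate 1 (0.0622) or 2 (0.135) or NCM replicate 1 (0.0690), with library size alone as scaling (0.0528) and with no count filter (0.119).

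Of 6 tested proteases and their partners that cut or pair with SIBLING proteins 5 rose and 1 fell, with a median of 0.76, where 18.8% of all genes tested were higher. Bmp1, which cleaves Dmp1 protein into its active fragments, was the one that fell, by 0.68 ± 0.11 (log2, SE, edgeR, adjusted p = 2.0e-04). Ctsb, a lysosomal protease that can release the inhibitory peptide of Mepe, rose by 1.36 ± 0.07 and Ctsk, a collagen-degrading cathepsin, by 0.67 ± 0.08. Mmp9, which pairs with Dmp1, rose by 3.15 ± 0.36 to 2.14 ± 0.115 CPM, and Mmp2, which pairs with bone sialoprotein, by 0.50 ± 0.08 to 2528 ± 241 CPM (SD, n = 4). Pcolce, an enhancer of Bmp1, rose by 0.84 ± 0.10. Mmp3, the partner of osteopontin, had 0 counts in every library.

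Both tested transglutaminases rose, and Alpl and Phospho1 fell. Tgm2, a transglutaminase that crosslinks osteopontin, rose by 2.10 ± 0.11 (log2, SE, edgeR, adjusted p = 1.4e-09), and F13a1, the coagulation factor XIII transglutaminase, by 3.82 ± 0.10 (adjusted p = 8.5e-13), from 26.1 ± 2.1 to 367.6 ± 46.2 CPM (SD, n = 4). Alpl, which removes phosphates from osteopontin and splits pyrophosphate, and Phospho1, a matrix vesicle phosphatase, had log2 fold changes of -2.19 ± 0.11 and -4.33 ± 0.14. In this list 3 of 5 tested genes rose and 2 fell (median 0.30), the third being the cytosolic phosphatase Acp1 (0.30 ± 0.07).

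Of 11 tested genes in the list of transcription factors for SIBLING promoters 8 were lower, 2 were higher and 1 did not pass. The median was -0.98, where 18.1% of all genes tested were lower. Mef2c, a factor of osteocytes and muscle, and Dlx3, a homeobox factor of bone, had log2 fold changes of -2.62 ± 0.09 and -2.63 ± 0.14 (SE, edgeR, adjusted p = 1.1e-11 and 1.7e-09). Sp7 and Runx2, the lineage factors, had changes of -1.20 ± 0.08 and -0.99 ± 0.07. The higher factors were Lef1 (0.44 ± 0.13), which acts in Wnt signalling, and Zfp521 (0.41 ± 0.07), a zinc finger protein, and the homeobox factor Msx2 (0.09 ± 0.21) did not pass.

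**Figure D5:**
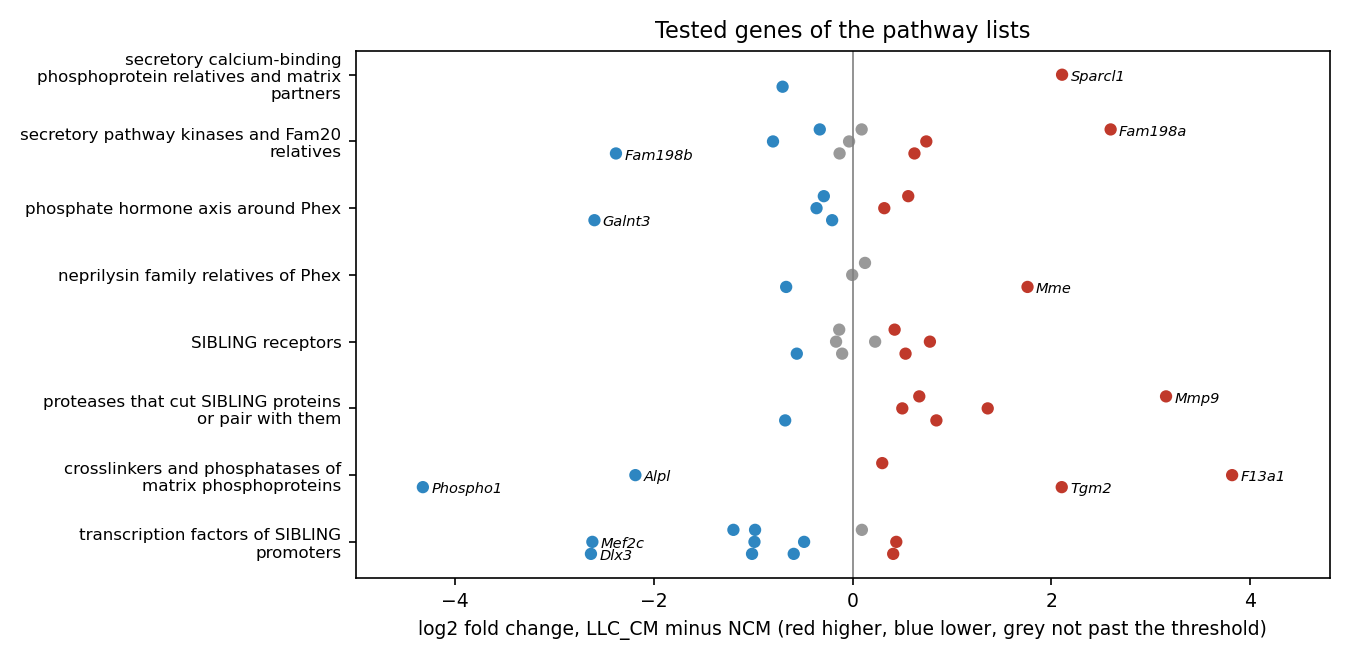
Log2 fold change, LLC_CM minus NCM, of the 51 tested genes in 8 pathway lists (the list that holds Dspp alone had none tested), with genes beyond 1.5 in either direction named. The medians run from -0.98 for transcription factors to 0.76 for proteases.

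Genes with the most similar profile to each member were sought by distance. That was the root mean square difference of log2 CPM, centred on NCM, over the 8 libraries. Candidates were tested genes of at least 5 CPM on average with a plain symbol, leaving out Gm, Rik, LOC and clone names. Spp1 was nearest to Fuca2 (0.08), Smim8 (0.08) and the pseudogene Scp2-ps2 (0.10). Ibsp was nearest to Fzd5, Cmip and Zfp609 (each 0.06), and Fam20c to Klf9 (0.04), Slc23a2 (0.05) and Slc36a1 (0.05). Mepe was nearest to Cngb1 (0.13), Ptgis (0.16) and Me2 (0.20), and Phex to Map3k5 (0.11), Sema6a (0.18) and Ppm1e (0.21). Dmp1 had no close match among these candidates: Tppp3 (0.50), C1qtnf3 (0.55) and Tcf7 (0.56) were nearest. Its own LLC_CM counts were 5, 24, 13 and 21, a CV of 62.0%, and the part of that spread in its distances was not tested. No member was among the 3 nearest of another, though Dmp1 and Mepe were themselves below 5 CPM on average and so could not be.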

How the data were processed

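Libraries of poly(A) RNA came from 8 MC3T3 samples, 4 LLC_CM and 4 NCM, with a kit that does not mark strand. The deposited table gives unnormalized read counts per gene, with gene length, coordinates and symbols, which were used as given. CASAVA, STAR, featureCounts and the mm10 build are listed per the submitters' processing notes. Tool versions and settings are not stated there.

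Counts were tested with edgeR 4.0.16 (R 4.3.3, limma 3.58.1): filterByExpr, TMM factors and the robust quasi-likelihood F test with no covariate. Benjamini-Hochberg adjustment ran over 14991 genes with a threshold of 0.05. Each SE was derived from the F statistic and the log2 fold change. CPM uses TMM-scaled totals. Alternatives were DESeq2 1.42.0, limma-voom, other factors and filters, a replicate block and leaving out each library. Ratios used an exact permutation test (scipy 1.17.1). Libraries of 1 group all differed beyond sampling noise.

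On counts simulated for LLC_CM against NCM over 14991 genes, calls were made for 68.8% of genes given a log2 change of 0.5, 85.7% of those given 1 and 100% of those given 2 or 3, with 11 unchanged genes called. Few genes were changed there, 48 to 50 for each size, where 36.9% of genes tested were called in the data. These rates may therefore differ from those of the real comparison. Members and gene lists were chosen with earlier results of these data known. Named genes were the 6 members, 16 genes fixed by name, up to 4 members of each list with the smallest adjusted p, tested genes of the SIBLING window with a plain symbol, and the 3 nearest profiles per member. For those profiles 0.05 CPM was added before log2. That amount replaced a larger one after its output was seen, which changed the genes named. Also named after their values were seen were Mmp2, Mmp3, Acp1, Lef1, Zfp521, Msx2, Kl, Slc34a1, Slc34a3, Ambn, Enam, Amelx, Amtn, Odam, D930016D06Rik, Gm8258 and the cell type markers. A fit with a term for odd against even replicate numbers was tried and not kept. Promoter sequences are RefSeq's.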

Additional observations from a re-analysis of the deposited data

Results flagged for a closer look

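The Dmp1-to-Mepe ratio of NCM replicate 3 stood apart from its group, at 0.47 on the log2 scale where the other 3 NCM libraries lay between -0.07 and 0.01. Its gap to the nearest library was 0.845 of the group's range, above Dixon's 95% critical value for 4 samples. Dmp1 was at 6.64 CPM in that library, the highest of the 8. This was 1 of 22 groups of 4 values examined, and chance alone passes about 5% of such groups.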

How the results depend on the processing

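All 6 members kept their direction and their call in all 16 other settings, with log2 fold changes of 0.67 to 0.84 for Spp1, -0.53 to -0.40 for Ibsp, -3.62 to -2.98 for Dmp1, -3.08 to -2.82 for Mepe, -3.18 to -2.92 for Phex and -0.93 to -0.85 for Fam20c. Ibsp had the highest adjusted p among them, 0.010 without LLC_CM replicate 1. Over 65 named genes, 1012 alternative values kept the call, 22 lost it, 6 gained it and none changed sign. Deviations of same-numbered libraries correlated at 0.07, -0.04, 0.20 and -0.03, and those of libraries with unlike numbers at -0.23 to 0.18. Whether equal numbers mark pairs was not tested, and the labels do not say so. With the replicate number as a block, Fam20a was the named gene that lost its call (0.066). Sign flips over equal numbers cannot go below p = 0.125, the exact p which Ibsp to Spp1 (-1.22), Dmp1 to Ibsp (-3.02) and Fam20c to Fam20b (-0.84) reached. Leaving out 1 library cannot go below 0.0571 for a ratio. Ratios then ranged from -1.36 to -1.12, from -3.37 to -2.60 and from -0.88 to -0.78 in that order, Dmp1 to Mepe from -0.91 to -0.01, and Phex to Dmp1 from -0.15, without LLC_CM replicate 1, to 0.89, without LLC_CM replicate 2. Lower neighbours of the SIBLING genes numbered 0 to 3 when 1 library was left out and 0 at an adjusted p of 0.01. With the GENCODE M21 exon union as length, Fam20c moved to 2.95 CPM per kb in NCM and 1.603 in LLC_CM, because that union is longer. Depth limits Dmp1 and Mepe most, at 5 to 26 counts in LLC_CM libraries. The SEs given rest on the spread between libraries as well as on counting, and that spread may be technical.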
